A study of Mus musculus with 18 samples.

Results

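The genes described here are 10 that mark or steer the T helper 1 (Th1) programme of CD4+ T cells: the transcription factors Tbx21, Eomes, Runx3 and Stat4, the interleukin receptor chains Il12rb1, Il12rb2, Il18r1 and Il18rap, the interferon gamma receptor chain Ifngr1, and the surface marker gene Ly6c2. They were picked by name with earlier results of these data known. Each is 1 row among the 34162 Ensembl genes of the table. All 10 passed the filter on low counts, which kept 14876 genes. Each library was made from the RNA of about 500 sorted CD4+ effector T cells, recovered in week 3 after transfer into Rag-deficient hosts, animals that lack lymphocytes with rearranged receptors. The wild type cells were C57BL/6 carrying CD45.1, and the other cells were C57BL/6 Nr1i3-/-, labelled CARko and called CAR-deficient below because Nr1i3 encodes the nuclear receptor CAR. Each genotype was taken from spleen, colon lamina propria (cLP) and small intestine lamina propria (siLP), with 3 libraries in each of the 6 groups. All groups share the Rag-deficient host and the effector sort, and the labels give neither the age nor the sex of the animals. Column names give the organ and whether cells carried CD45.1, and columns of cells without it were assigned to the CAR-deficient groups, the only other genotype in the labels. The libraries of a group are called a, b and c by the ending of their column, which is a name and no statement of a shared host or day.

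Th1 cells are the CD4+ helper cells that make interferon gamma. Interleukin 12 binds a receptor of Il12rb1 and Il12rb2 chains and activates STAT4, which together with T-bet (the product of Tbx21) and RUNX3 opens the interferon gamma gene, while interleukin 18 acts through a binding chain (Il18r1) and an accessory chain (Il18rap) to raise interferon gamma further. In colitis driven by T cells transferred into lymphocyte-deficient mice, interferon gamma-producing cells are a well known part of the infiltrate. Eomesodermin (Eomes) is a T-box relative of T-bet, IFNGR1 is the ligand-binding chain through which cells sense interferon gamma, and Ly6c2 encodes the surface protein Ly6C found on effector T cells and on monocytes.

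Total estimated counts ran from 19605135 to 25436389 per library, and the 6 libraries called a had fewer genes detected (15466 to 16128) than the other 12 (17013 to 18819). The CD4 T cell genes Cd3e, Cd3d, Cd3g, Cd4, Trac and Cd28 summed to between 5796 and 14059 CPM in every library, CPM being counts per 1000000 of the scaled library total, with none of the 6 at 0. Nr1i3 did not separate the labels: 4 wild type and 4 CAR-deficient libraries had at least 3 counts of it and the other 10 had fewer. The library labelled siLP CARko a held the most Nr1i3, 196 counts or 9.49 CPM, which goes against its label, although a count over the whole gene does not tell a deleted exon from a kept one. Values without that library stand beside the genotype results of Tbx21, Runx3, Il12rb2, Il18r1, Il18rap and Ifngr1 and beside the siLP result of Ifngr1.

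Promoter windows of 300 bases (250 before and 50 after the annotated start) are shown for Il18rap and Il18r1, neighbours whose genes lie 14.5 kb apart on chromosome 1, for Ly6c2 and its near copy Ly6c1 on chromosome 15, whose reads can be confused, and for Ifngr1, the member with an organ difference past the threshold. They are RefSeq sequences of GRCm38.p6, written 5′ to 3′ on the gene's strand, from chr1:40515112-40515411 (plus strand), chr1:40465302-40465601 (plus strand, the most upstream of its RefSeq windows), chr15:75111922-75112221 (minus strand), chr15:75048788-75049087 (minus strand) and chr10:19591699-19591998 (plus strand). Capitals mark matches on either strand to TGTGGT, the RUNX core (read as ACCACA where it lies on the opposite strand), or to AGGTCA, the hexamer that nuclear receptors bind.
Il18rap: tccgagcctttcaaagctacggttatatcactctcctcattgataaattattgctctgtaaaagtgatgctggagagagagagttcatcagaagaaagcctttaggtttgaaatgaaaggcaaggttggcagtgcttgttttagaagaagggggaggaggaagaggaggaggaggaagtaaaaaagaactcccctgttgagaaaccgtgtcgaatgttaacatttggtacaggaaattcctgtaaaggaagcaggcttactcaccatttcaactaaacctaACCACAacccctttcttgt
Il18r1: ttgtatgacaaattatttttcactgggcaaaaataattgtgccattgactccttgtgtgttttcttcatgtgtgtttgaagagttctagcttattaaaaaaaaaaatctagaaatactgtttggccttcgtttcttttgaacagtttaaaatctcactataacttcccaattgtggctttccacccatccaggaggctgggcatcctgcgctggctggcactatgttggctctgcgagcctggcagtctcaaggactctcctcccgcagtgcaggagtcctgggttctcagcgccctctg
Ly6c2: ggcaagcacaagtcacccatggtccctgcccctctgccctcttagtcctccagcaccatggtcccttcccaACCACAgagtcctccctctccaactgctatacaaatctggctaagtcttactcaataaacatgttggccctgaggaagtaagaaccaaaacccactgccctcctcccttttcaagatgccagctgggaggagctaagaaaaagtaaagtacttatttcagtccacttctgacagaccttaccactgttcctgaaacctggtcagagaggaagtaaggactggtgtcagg
Ly6c1: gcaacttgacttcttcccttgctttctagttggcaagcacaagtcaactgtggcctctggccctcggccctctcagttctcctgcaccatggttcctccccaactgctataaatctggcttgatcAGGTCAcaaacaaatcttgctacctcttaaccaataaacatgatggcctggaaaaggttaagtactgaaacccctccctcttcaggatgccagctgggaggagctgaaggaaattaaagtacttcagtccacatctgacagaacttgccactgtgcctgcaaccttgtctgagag
Ifngr1: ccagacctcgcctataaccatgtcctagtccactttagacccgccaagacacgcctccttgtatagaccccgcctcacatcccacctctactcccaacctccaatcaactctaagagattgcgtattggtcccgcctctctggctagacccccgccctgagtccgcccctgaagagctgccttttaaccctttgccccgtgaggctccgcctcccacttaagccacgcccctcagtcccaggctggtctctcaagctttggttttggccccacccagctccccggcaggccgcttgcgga

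RefSeq windows were matched for 9 of the 10 genes, Il12rb1 being the other, and both strands were searched for GTGTGA (T-box), TGTGGT (RUNX), TTCNNNGAA (STAT) and AGGTCA. The RUNX letters occurred in the Il18rap window, at the same site in both overlapping windows of Ly6c2, in another window of Il18r1 and in a window of Runx3. Of all 32851 promoter windows of this length, 16.8% hold them. Il12rb2 held the STAT letters and the T-box letters, and another Il18r1 window held the STAT letters at 2 places, against 8.30% and 14.5% of all windows. AGGTCA occurred in a Stat4 window and in the printed Ly6c1 window, against 16.3% of all windows. The Tbx21, Eomes and Ifngr1 windows held none of these letters. The Ly6c2 and Ly6c1 windows matched at 214 of 286 aligned positions (74.8%). These matches describe the letters and say nothing about binding.

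The members differed widely in level. To rank genes, CPM was divided by the length of each gene's annotated exons in kilobases (GENCODE vM21, all transcripts merged). On that scale Ifngr1 was the most abundant at 163 ± 96.7 CPM per kilobase (mean ± SD, n = 18 libraries), followed by Ly6c2 at 99.0 ± 46.8 and Stat4 at 79.4 ± 15.4. A middle group lay close together, with Il18rap at 23.2 ± 17.4 CPM per kilobase, Eomes at 20.3 ± 6.64, Il18r1 at 15.7 ± 6.18 and Runx3 at 13.9 ± 3.63. Tbx21 followed at 10.4 ± 5.82, Il12rb2 at 6.05 ± 4.35 and Il12rb1, the chain that interleukin 12 and interleukin 23 receptors share, at 2.46 ± 0.774. The mean ± SD intervals of neighbours in this order overlapped, except those of Stat4 and Il18rap. Merged exons can exceed the transcript a cell makes, which places such a gene too low, and the order carries that limit. Eomes stood above Tbx21 per kilobase in 15 of 18 libraries, the other 3 being library c of both cLP groups and of CAR-deficient siLP.

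**Figure D1:**
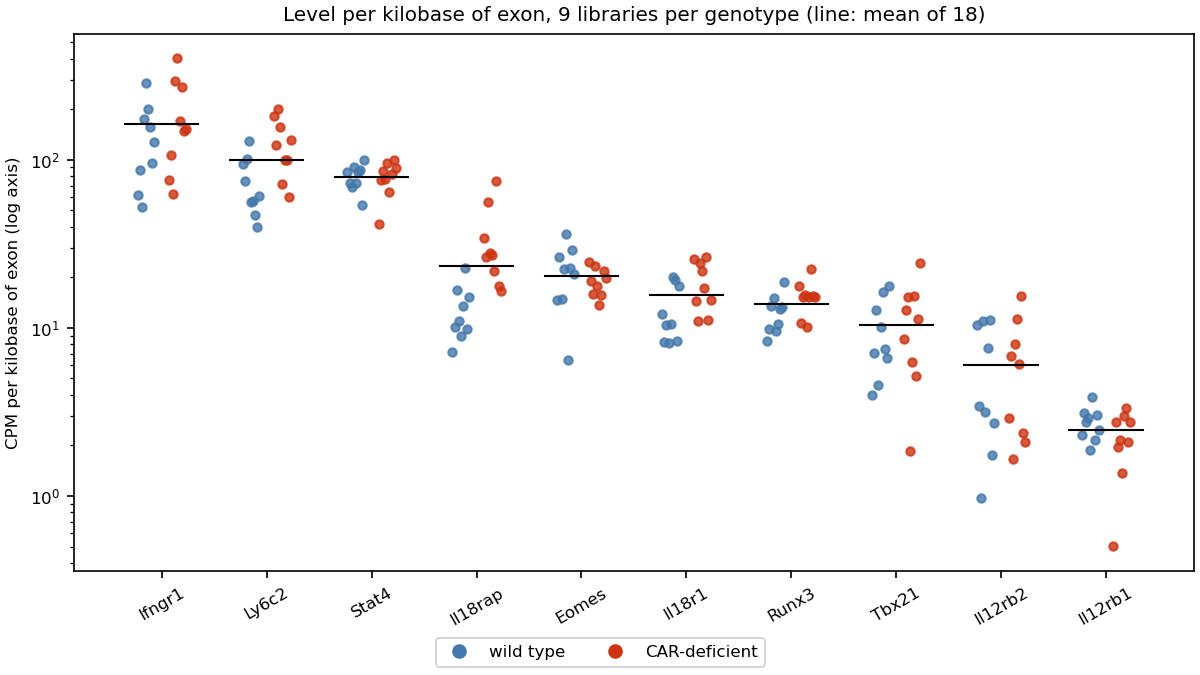
CPM per kilobase of exon (log axis) of each member in 9 wild type (blue) and 9 CAR-deficient (red) libraries, ordered by the mean of 18 libraries (line). Ifngr1, Ly6c2 and Stat4 lie highest, and Il12rb1 lies lowest with a mean of 2.46.

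Genotype was compared first, asking whether the loss of CAR changes the Th1 genes. In the average over organs no member passed an adjusted p of 0.05 (edgeR's quasi-likelihood test, Benjamini-Hochberg over all 14876 genes), as did 0.0134% of all genes, 2 in number. At an unadjusted p under 0.05 there were 3 of 10, Il18rap, Ly6c2 and Il18r1, all higher in CAR-deficient cells, against 5.77% of all genes. The members were chosen with earlier results of these data known, so these shares describe them and do not test them as a set. Il18rap and Il18r1 are also neighbours on chromosome 1. DESeq2 called 1 member, Il18rap, and 0.858% of all genes, and voom with quality weights called none. The log2 fold change was above 0 for 7 of 10 members with a median of 0.25, beside a median of -0.01 over all genes. Because these are bulk libraries, a change in the share of cells that express a gene and a change in its RNA per cell cannot be told apart.

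**Figure D2:**
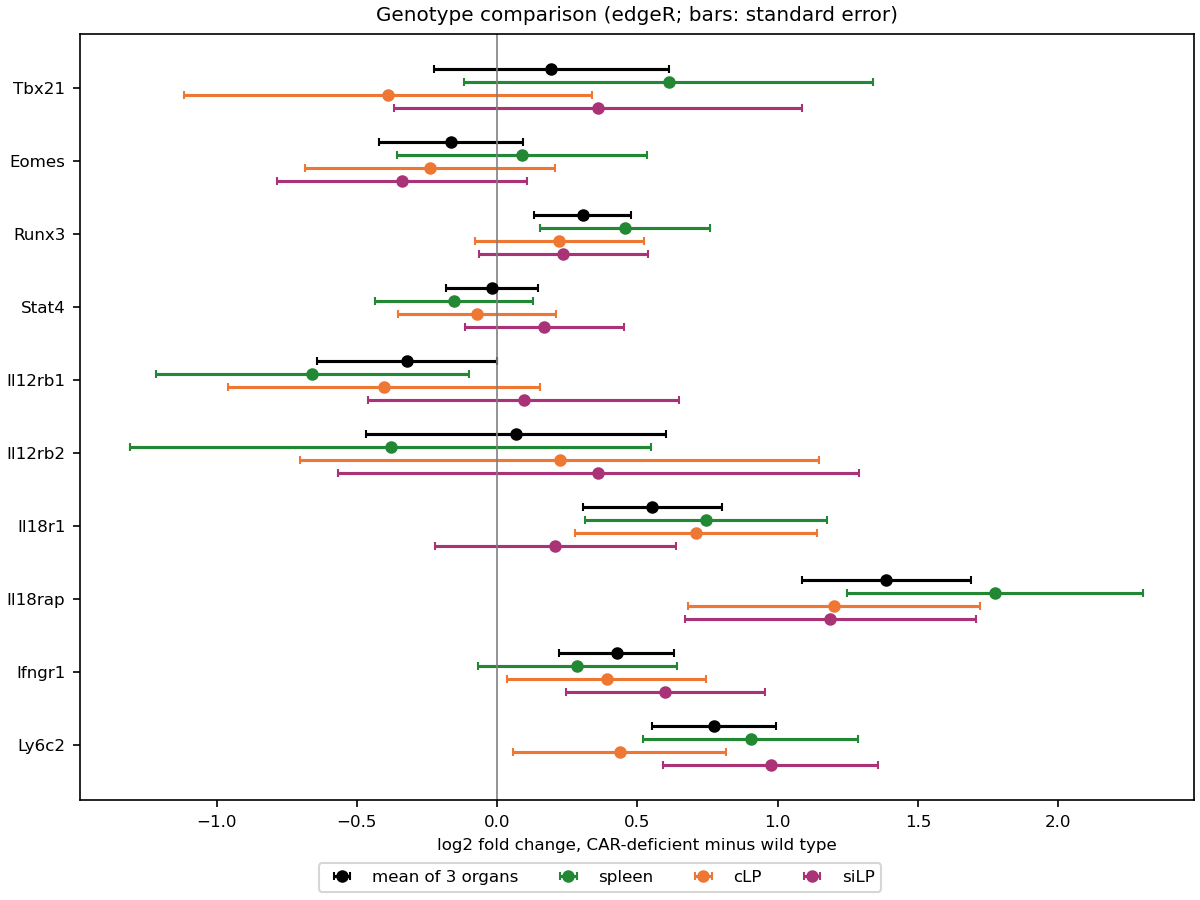
Log2 fold change, CAR-deficient minus wild type, of each member averaged over 3 organs (black) and in each organ (colours), with standard errors (edgeR). Il18rap lies farthest right, at 1.39 in the average, and Il12rb1 farthest left.

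Tbx21, the gene of the lineage-defining Th1 factor, showed no steady genotype direction. Libraries a, b and c held 9.95, 17.5 and 32.0 CPM in wild type spleen and 21.2, 31.8 and 37.7 in CAR-deficient spleen. The cLP values were 11.3, 25.2 and 40.7 CPM in wild type and 4.62, 15.6 and 38.6 in CAR-deficient cells. For siLP they were 18.7, 16.5 and 44.1 CPM in wild type and 12.8, 28.3 and 60.6 in CAR-deficient cells. Genotypes overlapped in every organ, whereas library c was the highest of its group in 6 of 6 groups and library a the lowest in 5, a range within a group wider than any gap between group means. The c library was highest in all 6 groups for 1.79% of all genes. The averaged genotype difference was 0.19 ± 0.42 (log2 ± SE, adjusted p = 1.00, edgeR), with 0.61 in spleen, -0.39 in cLP and 0.36 in siLP. Without siLP CARko a the average was 0.32 and the siLP difference 0.75.

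Eomes, which shares targets with T-bet, ran from 26.8 to 149 CPM over 18 libraries with a median of 84.9, and its lowest and highest values were both in wild type cLP. Its genotype difference was -0.16 ± 0.26 (log2 ± SE, adjusted p = 1.00, edgeR). Runx3, the factor that works with T-bet at the interferon gamma and Il4 genes, ran from 41.6 to 112 CPM and averaged 62.3 in wild type and 76.5 in CAR-deficient libraries. It was higher in the CAR-deficient library of 8 of 9 pairs made by organ and column ending. The share of all genes was worked out for 9 of 9 pairs only, so lower counts here and below stand without it. The log2 difference of Runx3 was 0.30 ± 0.17 (adjusted p = 0.933, edgeR), and 0.24 without siLP CARko a. Stat4, which carries the interleukin 12 signal, stayed between 160 and 387 CPM, and its genotype difference was -0.02 ± 0.16 (log2 ± SE, adjusted p = 1.00, edgeR). These 3 factors overlapped between genotypes in all organs. Of the distinct 31-base stretches of Stat4's transcripts, 23.7% are shared with Gm28177, an overlapping transcript on the same strand, so part of its estimated count depends on how reads were split.

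The chains of the interleukin 12 receptor were the least abundant members. Il12rb1 ran from 2.06 CPM (spleen CARko a) to 15.8 (cLP wild type c), and was lower in the CAR-deficient library of 7 of 9 pairs. Its averaged difference was -0.32 ± 0.32 (log2 ± SE, adjusted p = 1.00, edgeR). Il12rb2, the chain that T-bet is known to induce and that makes the receptor responsive, varied widely between libraries of a group. In spleen, libraries a, b and c held 39.5, 13.0 and 3.71 CPM in wild type and 11.1, 25.9 and 6.30 in CAR-deficient cells. In cLP they held 41.8, 12.0 and 28.8 CPM in wild type and 30.3, 42.8 and 23.1 in CAR-deficient cells. In siLP they held 42.0, 6.64 and 10.3 CPM in wild type and 58.9, 8.98 and 7.93 in CAR-deficient cells. Library a was the highest in 4 of 6 groups and genotypes overlapped in each organ. The averaged difference was 0.07 ± 0.53 (log2 ± SE, adjusted p = 1.00, edgeR), and -0.48 without siLP CARko a, the library with the most Il12rb2. Il12rb2 counts are uncertain, because 38.6% of its 31-base stretches are shared with Serbp1, a gene on the opposite strand that overlaps 1519 exon bases and was far more abundant (363 to 518 CPM in all libraries), and the library chemistry keeps no strand. Across the 18 libraries, log2 CPM of Tbx21 and Il12rb2 had a Pearson correlation of -0.53, given as a description of libraries that share endings and depth.

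The accessory chain of the interleukin 18 receptor, Il18rap, had the largest genotype difference of the 10. Libraries a, b and c of spleen held 48.3, 68.6 and 113 CPM in wild type and 231, 178 and 378 in CAR-deficient cells. The cLP libraries held 74.0, 60.7 and 91.0 CPM in wild type and 189, 183 and 146 in CAR-deficient cells. Those of siLP held 154, 66.4 and 103 CPM in wild type and 504, 120 and 112 in CAR-deficient cells. All 3 CAR-deficient libraries lay above all 3 wild type libraries in spleen and in cLP, as they did for 3.23% and 4.09% of all genes, while the genotypes overlapped in siLP. There the mean was set by library a, the one whose Nr1i3 count goes against its label. The averaged difference was 1.39 ± 0.30 (log2 ± SE, 2.62-fold), with an adjusted p of 0.195 by edgeR and 0.00214 by DESeq2, so the call depends on the tool. Without siLP CARko a the average was 1.02 (adjusted p = 0.341, edgeR) and the siLP difference dropped from 1.19 to 0.10. Within spleen and cLP it was 1.77 ± 0.53 and 1.20 ± 0.52, and no member or other gene passed in spleen, cLP or siLP alone (0% of genes each, adjusted p of 1 for Il18rap in each, edgeR).

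Pairs of libraries with the same organ and column ending put Il18rap higher in the CAR-deficient library in 9 of 9, as for 0.948% of all genes. The CAR-deficient to wild type ratio had a median of 2.60 and ran from 1.09 (siLP c) to 4.79 (spleen a). Summed markers of natural killer and innate lymphoid cells, which also carry interleukin 18 receptors, narrowly cleared the wild type range in CAR-deficient spleen. The 6 genes summed for them (Ncr1, Klrb1c, Tyrobp, Fcer1g, Klra8 and Klra4) summed to 8.15 to 24.8 CPM in wild type and 25.2 to 43.3 CPM in CAR-deficient spleen, with 3 and 0 of them at 0 in every library of the group. The same sum was 7.12 to 11.9 against 7.99 to 61.6 CPM in cLP and 14.1 to 57.8 against 17.4 to 24.2 CPM in siLP. Ncr1 was under 3 counts in 12 of 18 libraries and reached 4.26 CPM, and Klrb1c was under 3 counts in 5 and reached 7.88 CPM. Of the 7 tested genes of the longer list for these cells, 3 lay above and 4 below 0 in the genotype average (median log2 fold change -0.0045). Klra4, with the smallest p of that list in the genotype average, reached 25.7 CPM in spleen CARko a and was under 3 counts in 11 libraries. Outside the sum, Kit and Il1rl1 of the same list lay at -1.67 ± 1.20 and -0.08 ± 0.68 in the genotype average (log2 ± SE, neither past the threshold), and Kit reached 4.02 CPM. The part of these cells in the Il18rap difference was not tested.

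**Figure D3:**
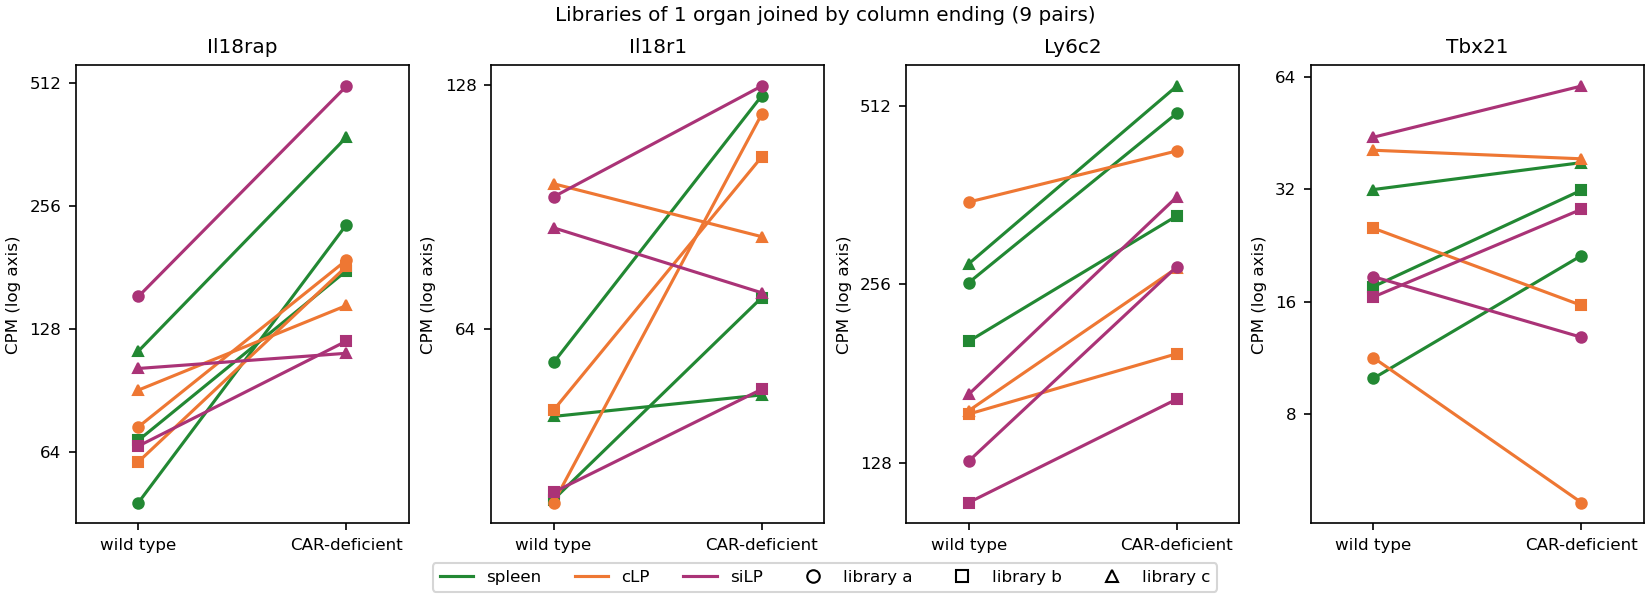
CPM (log axes) of Il18rap, Il18r1, Ly6c2 and Tbx21 in wild type and CAR-deficient libraries, joined by organ (colour) and column ending (marker), 9 pairs a gene. Every line of Il18rap and Ly6c2 rises, 7 of 9 do for Il18r1, and 5 of 9 do for Tbx21.

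Il18r1, the binding chain encoded next to Il18rap, moved the same way by less. Its spleen libraries a, b and c held 58.2, 39.4 and 49.9 CPM in wild type and 124, 70.0 and 53.1 in CAR-deficient cells. Its cLP libraries held 39.1, 50.9 and 96.7 CPM in wild type and 118, 104 and 83.2 in CAR-deficient cells. In siLP the values were 93.2, 40.3 and 85.3 CPM in wild type and 128, 53.9 and 71.0 in CAR-deficient cells. The genotypes overlapped in each organ, and library a was highest in 5 of 6 groups. The averaged difference was 0.55 ± 0.25 (log2 ± SE, adjusted p = 0.833, edgeR), 0.41 without siLP CARko a and 0.26 without the 6 libraries a. In siLP alone the Il18r1 difference was -0.23 without siLP CARko a. Per kilobase of exon, Il18rap stood above Il18r1 in 9 of 9 CAR-deficient and 5 of 9 wild type libraries. Log2 CPM of the chains correlated at r = 0.62 over 18 libraries, and Runx3 with Il18rap at r = 0.61, both as descriptions. Il18r1, Il18rap and Stat4 lie on chromosome 1, as do Ptprc, which carries the CD45.1 variant, and Nr1i3. Il18rap is 97.5 Mb from Ptprc and 131 Mb from Nr1i3, and the loss of CAR and the congenic difference at CD45.1 cannot be told apart in this design.

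Ly6c2 was higher in CAR-deficient cells in 9 of 9 pairs, as were 0.948% of all genes, with a median ratio of 1.74 and a range from 1.22 to 2.15. Spleen libraries a, b and c held 257, 205 and 277 CPM in wild type and 497, 334 and 552 in CAR-deficient cells. For cLP the values were 352, 155 and 157 CPM in wild type and 429, 195 and 273 in CAR-deficient cells. For siLP the values were 129, 110 and 167 CPM in wild type and 274, 164 and 359 in CAR-deficient cells. Spleen was the organ in which the genotypes did not overlap, all CAR-deficient libraries lying above all wild type ones, as for 3.23% of all genes. In siLP only the b library of the CAR-deficient cells fell within the wild type range. The averaged difference was 0.77 ± 0.22 (log2 ± SE, adjusted p = 0.446, edgeR), and leaving out each library in turn gave 0.65 to 0.95. Of the 31-base stretches of Ly6c2, 21.4% are shared with Ly6c1, whose level was far lower, 0.245 to 35.3 CPM. Markers of monocytes, macrophages and neutrophils (8 genes, Lyz2 and Csf1r among them) summed to 3.78 to 13.1 CPM in wild type and 8.96 to 13.7 CPM in CAR-deficient spleen, with none of the 8 at 0 in every library of either spleen group. In siLP that sum was 34.4 to 126 CPM in wild type and 27.4 to 46.6 CPM in CAR-deficient cells, most of it Lyz2, and in cLP it was 21.7 to 71.3 against 10.2 to 65.2 CPM, with 2 of the 8 at 0 throughout both cLP groups and CAR-deficient siLP. Csf1r stayed at or under 5.38 CPM in all libraries and was under 3 counts in 7. Single genes of the longer monocyte list lay on both sides in the genotype average, with Csf1r at 1.21 ± 1.24, Itgam at 0.71 ± 0.43 and Lyz2 at -0.54 ± 0.74 (log2 ± SE). Cx3cr1, which is on that list but not in the sum, was at 1.98 ± 0.42 (log2 ± SE, adjusted p = 0.179, edgeR), with at most 26.3 CPM in wild type against 42.5 to 150 CPM in CAR-deficient spleen, 3.77 to 7.92 against 6.36 to 35.7 CPM in cLP and 7.07 to 18.4 against 25.5 to 42.7 CPM in siLP. The part of such cells in the Ly6c2 difference was not tested.

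**Figure D4:**
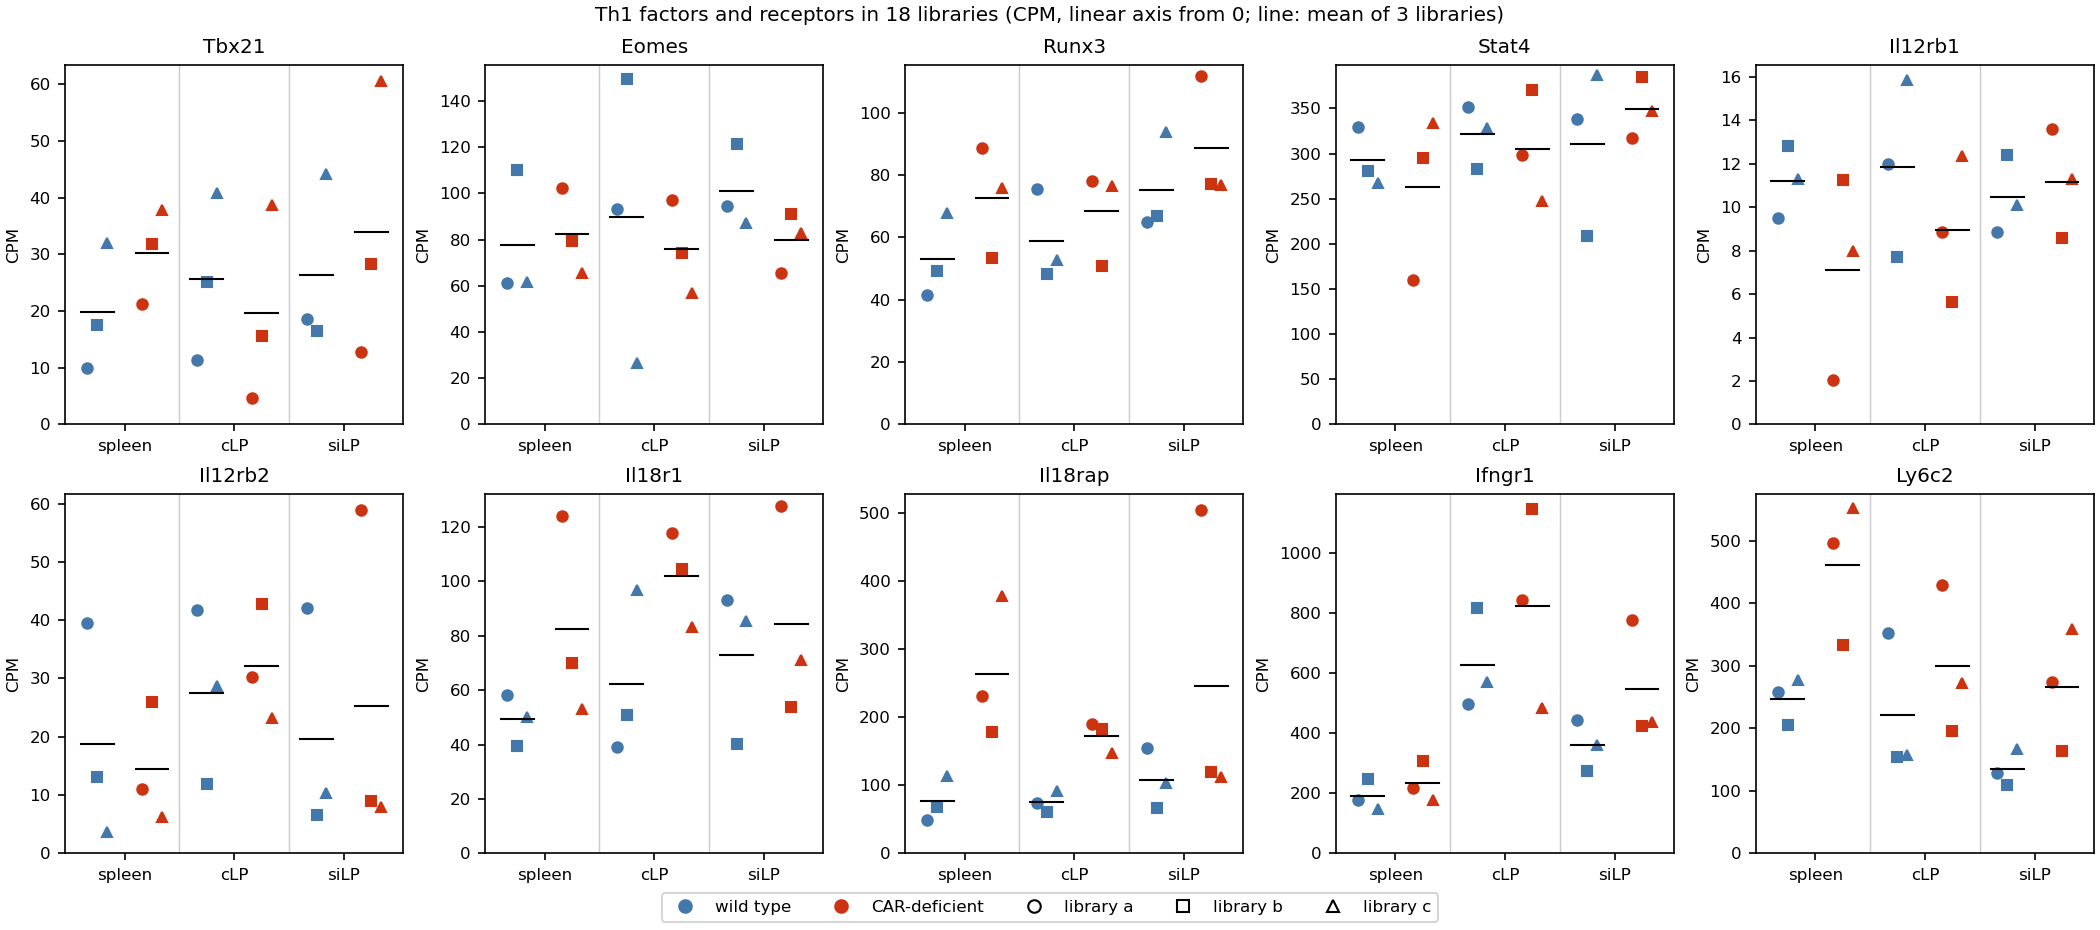
CPM (linear axes from 0) of the 10 members in each library, by organ, genotype (blue wild type, red CAR-deficient) and column ending (marker), with the mean of 3 libraries as a line. Ifngr1 stands higher in all 6 cLP libraries than in the 6 spleen libraries, and Tbx21 is highest in library c of every group.

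Ifngr1 was the member that differed between organs. Libraries a, b and c of spleen held 177, 249 and 148 CPM in wild type and 216, 306 and 178 in CAR-deficient cells. Those of cLP held 497, 818 and 569 CPM in wild type and 842, 1145 and 483 in CAR-deficient cells. Those of siLP held 445, 273 and 361 CPM in wild type and 776, 424 and 435 in CAR-deficient cells. All 6 cLP libraries lay above all 6 spleen libraries, as for 2.31% of all genes, and in siLP 5 of 6 did, wild type b being within the spleen range. Averaged over genotypes, cLP exceeded spleen by 1.77 ± 0.26 (log2 ± SE, 3.41-fold, adjusted p = 0.00114, edgeR), and this was 1 of 10 members called, beside 3.07% of all genes. Leaving out each library in turn gave 1.63 to 1.90 and adjusted p-values from 6.21e-04 to 0.00675 (edgeR).

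The Ifngr1 difference was similar in size in both genotypes. It was 1.72 ± 0.36 in wild type cells (log2 ± SE, adjusted p = 0.0581, with 0.376% of genes called) and 1.82 ± 0.37 in CAR-deficient cells (adjusted p = 0.0371, with 0.484% called, edgeR). The test of the genotype difference between the organs gave 0.10 ± 0.50 (adjusted p = 1.00, edgeR). Small intestine against spleen was 1.07 ± 0.25 (adjusted p = 0.0662, edgeR, with 0.847% of genes and no member called). This difference was past the threshold with DESeq2 (adjusted p = 0.00656), which called 396 genes there against 126 by edgeR. With voom it fell short (adjusted p = 0.0909). Without siLP CARko a it was 0.90 (adjusted p = 0.216, edgeR). Small intestine against colon was -0.70 ± 0.25 (adjusted p = 0.343, edgeR, 0% of genes called). Between genotypes Ifngr1 was higher in the CAR-deficient library in 8 of 9 pairs, at 0.43 ± 0.21 (log2 ± SE, adjusted p = 0.859, edgeR) and 0.31 without siLP CARko a.

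Some markers of other cells differed between organs as well. The 13 epithelial genes, Epcam among them, summed to 7.70 to 13.0 CPM in spleen and 23.4 to 278 CPM in cLP. In siLP they summed to 4.73 to 9.82 CPM in wild type, reaching below the spleen range, and to 15.1 to 25.6 CPM in CAR-deficient cells. The top value was in cLP CARko b, where Ifngr1 was also highest. Without that library the Ifngr1 difference of cLP from spleen was 1.63 (adjusted p = 0.00390, edgeR). The 8 monocyte, macrophage and neutrophil genes summed to 3.78 to 13.7 CPM in spleen, 10.2 to 71.3 CPM in cLP and 27.4 to 126 CPM in siLP. The ranges of the 2 gut sites overlapped, and CAR-deficient siLP reached only 46.6 CPM. Lyz2 reached 119 CPM in siLP wild type b, the siLP library with the least Ifngr1. No other gene of that sum exceeded 5.38 CPM in any library. Of the 11 tested genes of the longer monocyte list, 3 lay above and 8 below 0 in cLP against spleen (median log2 fold change -0.84). In siLP against spleen 6 lay above and 5 below 0 (median 0.30). Cd8a and Cd8b1 summed to at most 11.8 CPM, with Cd8a reaching 2.44 CPM and Cd8b1 11.6 CPM. Single marker genes passed as well in cLP against spleen: the epithelial Krt19 (adjusted p = 0.00604), Cdh1 (0.0160) and Krt8 (0.0363), and Ccr2 of the longer monocyte list at 0.75 ± 0.17 (log2 ± SE, adjusted p = 0.0220, edgeR). Krt19 reached 46.0, Krt8 29.5 and Cdh1 15.2 CPM, all in CAR-deficient cLP. Of the 18 libraries, Krt19 was under 3 counts in 11, Krt8 in 10 and Cdh1 in 7. Cd28, the costimulatory receptor gene of T cells, passed in both gut sites, at 2.22 ± 0.36 in cLP (adjusted p = 0.00278) and 1.77 ± 0.36 in siLP (log2 ± SE, adjusted p = 0.0225, edgeR). The part of these cells in the organ differences was not tested.

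**Figure D5:**
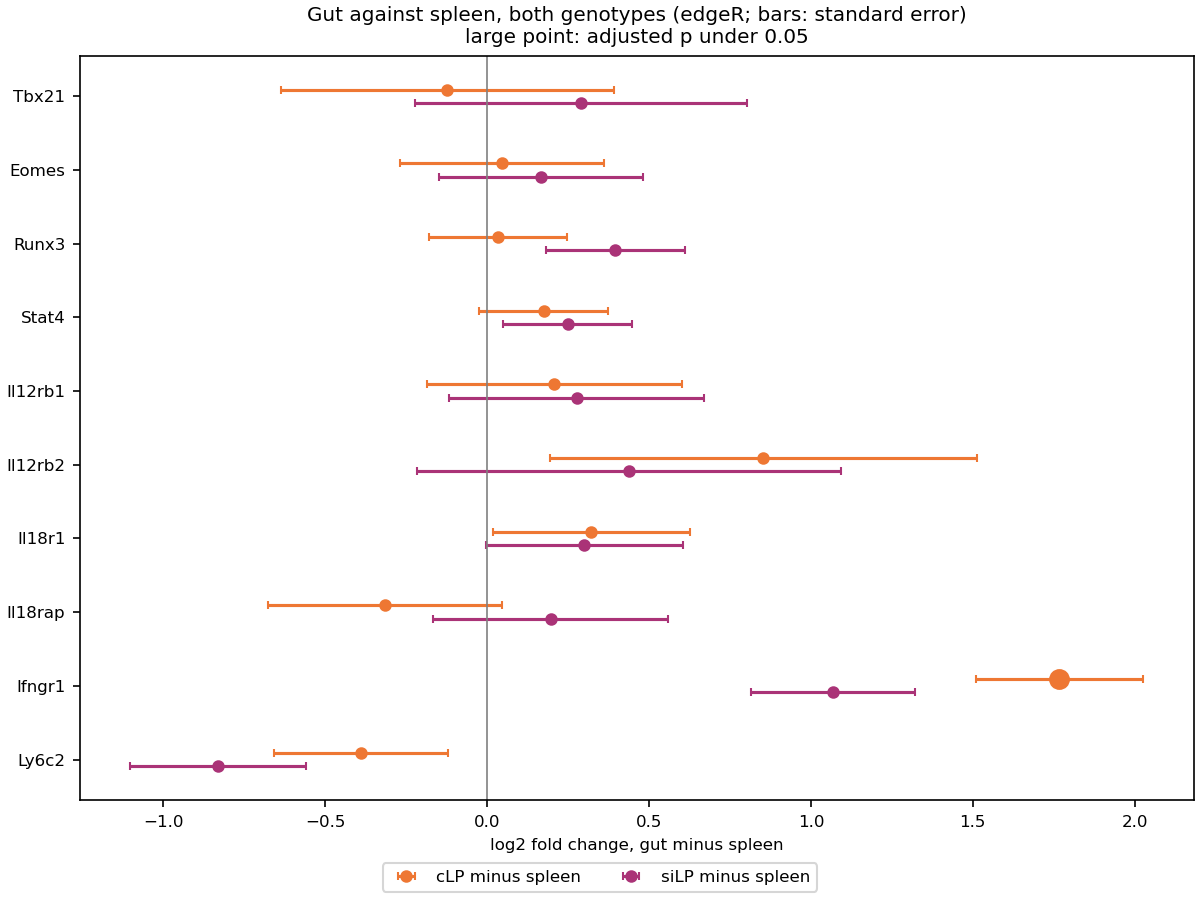
Log2 fold change of each member, colon (orange) or small intestine (purple) minus spleen, averaged over genotypes, with standard errors (edgeR). The large point marks the adjusted p under 0.05, that of Ifngr1 in cLP at 1.77, and Ly6c2 lies to the left in both gut sites.

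The other 9 members passed in no organ comparison by edgeR's fit of the 6 group means. Ly6c2 was lower in gut, at -0.83 ± 0.27 in siLP (log2 ± SE, adjusted p = 0.264) and -0.39 ± 0.27 in cLP against spleen (adjusted p = 0.579, edgeR). Voom called both, with adjusted p-values of 0.0444 and 0.0148, but it called 251 and 1828 genes there, against 126 and 456 by edgeR. Il12rb2 was 0.85 ± 0.66 higher in cLP than in spleen (log2 ± SE, adjusted p = 0.643, edgeR), a standard error close to the estimate. The factor genes lay between -0.12 and 0.17 in cLP and between 0.17 and 0.40 in siLP against spleen, all within 2 standard errors of 0. Il18r1 and Il18rap were at 0.32 and -0.32 in cLP and at 0.30 and 0.20 in siLP (log2 fold change against spleen). No member, and 0% of genes, passed in the tests of whether the genotype effect differed between organs (cLP against spleen, siLP against spleen and siLP against cLP, each edgeR).

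Genes around the members in the same pathways were read from fixed lists. In the genotype average 0 of 11 interleukin 12 signalling partners, 0 of 13 interleukin 18 partners, 0 of 8 genes of the interferon gamma receptor pathway and 0 of 20 tested Th1 effector genes passed. The smallest p in each list belonged to Il27ra (log2 fold change -0.37), Tab2 (0.44), the kinase gene Jak1 (0.35) and the death ligand gene Fasl (0.72), none past the threshold. Ifng itself was 0.53 ± 0.36 higher in CAR-deficient cells (log2 ± SE, adjusted p = 0.986, edgeR), and Cxcr3, a T-bet target that guides Th1 cells to inflamed tissue, was at -0.53 ± 0.28 (adjusted p = 0.897). In the interleukin 1 receptor gene cluster around Il18r1 and Il18rap, 0 of 5 tested genes passed. There the decoy receptor gene Il1r2 lay at -1.95 ± 0.44 (log2 ± SE, adjusted p = 0.217, edgeR), opposite in sign to Il18rap. In that cluster 4 genes lay below 0 and 1 above, Mfsd9 at 3.82 ± 1.49 (log2 ± SE, adjusted p = 0.747, edgeR). Among 7 tested Ly6 genes other than Ly6c2 none passed and 6 lay below 0, with Ly6g at -2.55 ± 0.93 (adjusted p = 0.684) and Ly6c1 below 0 as well (adjusted p = 0.979). The helper lineage, Runx and T-box lists had 0 of 13 and 0 of 8 past the threshold, led by Batf (-0.54) and Runx2 (0.38). Among the marker lists none passed, and Cx3cr1, from the monocyte list but also a marker of cytotoxic effector T cells, is given with Ly6c2 above. The 13 epithelial genes summed to 23.4 to 42.5 CPM in wild type and 45.4 to 278 CPM in CAR-deficient cLP. In siLP that sum was 4.73 to 9.82 against 15.1 to 25.6 CPM, and in spleen 9.53 to 13.0 against 7.70 to 11.9 CPM. Of the 9 tested epithelial genes, 8 lay above and 1 below 0 in the genotype average (median log2 fold change 1.28). The part of epithelial cells in the genotype differences was not tested.

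Between organs the same lists did hold calls, all of them higher in gut. In cLP against spleen, where 3.07% of all genes were called, 4 of 20 Th1 effector genes rose, namely Bhlhe40, a factor needed for cytokine output (2.45 ± 0.24, log2 ± SE, adjusted p = 3.41e-05), Fasl (1.65), Tnf (1.66) and Ifng (1.90 ± 0.45, adjusted p = 0.0331, edgeR). Of the interleukin 18 partners 3 of 13 rose, the stress-induced Gadd45b (2.19) and Gadd45g (1.25) and the kinase gene Irak2 (1.44). Of the interleukin 12 partners 2 of 11 rose, the feedback inhibitor Socs3 (1.79) and Stat3 (0.79). No gene of the 8 in the interferon gamma receptor pathway passed beside Ifngr1. Jak2 came nearest at 0.79 ± 0.27 (adjusted p = 0.142, edgeR), and the partner chain Ifngr2 stayed between 0.253 and 5.13 CPM in every library. Runx2 (0.93) was the 1 of 8 in the Runx and T-box list to pass, and Irf4 (2.39) and Stat3 were 2 of 13 factors of other helper lineages. In siLP against spleen, where 0.847% of all genes were called, 3 of 20 Th1 effector genes rose, Tnf (2.91), Ifng (2.36) and Bhlhe40 (2.14), with Gadd45b (2.43), Socs3 (1.97) and Irf4 (2.15) from the other lists. Ifng spanned 242 to 842 CPM in spleen, 1402 to 3900 in cLP and 1207 to 7481 in siLP, without overlap between spleen and either gut site. All cLP libraries lay above all spleen libraries for 2.31% of all genes, and all siLP libraries did for 1.83%.

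Among 10050 genes with at least 5 CPM in 1 group, those whose log2 CPM followed a member most closely over the 18 libraries were listed as a description. Ifngr1 was followed by Pde4b (r = 0.93), Cytip (r = 0.93) and Prdx6 (r = 0.92), and Il18rap by Itsn2 (r = 0.85), Pik3cd (r = 0.82) and Ank (r = 0.80). Tbx21 was followed by Chst10 (r = 0.89), R3hcc1l (r = 0.89) and Tsc22d4 (r = 0.88), and Eomes by Txk (r = 0.75), Cd27 (r = 0.73) and Alcam (r = 0.68). Near to Ly6c2 were Ptpn4 (r = 0.78) and Lbr (r = 0.77), and nearest to Il18r1 were Bcl2 (r = 0.79), Fam117b (r = 0.79) and Kif24 (r = 0.78). The nearest gene was Adgrl1 for Runx3 (r = 0.88), Trmt10b for Stat4 (r = 0.75), Bud23 for Il12rb1 (r = 0.91) and Gtf2b for Il12rb2 (r = 0.79). These libraries share organ, genotype and ending, so the coefficients carry no p.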

How the data were processed

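The authors deposited 1 table with estimated counts per Ensembl gene for 18 libraries, per the file headers. Salmon, DESeq2 and mm10 are named, without versions or roles, in the submitters' processing notes. The kits (SMART-Seq v4, NEBNext Ultra II DNA) keep no strand in their usual form. Of 34162 rows, 34083 matched a symbol in GENCODE vM21. The 18 count columns were used and 37 others were not. Abundance columns had been planned for ranking genes and were tried, but no column name gives a replicate, so 1 measure was kept, and levels were divided by exon lengths from the annotation instead.

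Estimated counts were rounded. With edgeR 4.0.16 (R 4.3.3), filterByExpr kept 14876 genes, TMM scaled the libraries, and 6 group means were fitted by glmQLFit and tested two-sided by glmQLFTest, with Benjamini-Hochberg adjustment over all genes and a threshold of 0.05. SE was taken as the size of the log2 estimate divided by the root of F. CPM use TMM-scaled sizes. The fit was tested on simulated data. Alternatives were DESeq2's size factors, DESeq2 1.42.0, voom with quality weights (limma 3.58.1), no filter, a stricter filter (5 CPM in 3 libraries), a block by column ending, leaving out each library, and single organs. Leaving out the 6 libraries a was added after the data had been seen.

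Members and lists were chosen with earlier results of these data known. From each list up to 4 genes past the threshold were to be named, otherwise the 1 with the smallest p (not printed for every list), besides Ifng, Cxcr3, Ly6c1, Nr1i3 and defining markers. A marker gene and a gene from the likeness lists are not reported here. Serbp1 and Gm28177 were looked up after the overlaps had been seen. Total counts were 19605135 to 25436389, and 3 counts correspond to 0.108 to 0.185 CPM, which covers counting error only. No label says that the libraries of a group are separate animals, so p-values measure the spread between libraries.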

Additional observations from a re-analysis of the deposited data

How the results depend on the processing

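Of 344 log2 fold changes of members recomputed under alternatives other than leaving out 1 library, 320 kept direction and side of the threshold, 8 newly passed and 16 reversed. Leaving out each library in turn kept 805, made 1 pass and reversed 40. The number of members called was 1 with DESeq2 for genotype (edgeR 0), 2 with voom for cLP against spleen (edgeR 1) and 1 with voom for siLP against cLP (edgeR 0). For siLP against spleen (edgeR 0) it was 1 with DESeq2, 1 with voom, 1 under the stricter filter, and 0 to 1 without single libraries. Deposited abundance in place of CPM, and a limma fit on it, were tried and then left out because 1 measure could be kept, and their values are not given.

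The reversals, all of differences short of the threshold, were as follows. With voom, Stat4 between genotypes was 0.21; in cLP against spleen Eomes was -0.033, Runx3 -0.16 and Il12rb1 -0.16; in siLP against spleen Tbx21 was -0.0055 and Il18rap -0.46. Without the 6 libraries a, Stat4 between genotypes was 0.16 and Il18r1 between genotypes in siLP was -0.017. In cLP against spleen Tbx21 was then 0.044, Eomes -0.036, Runx3 -0.10 and Il12rb1 -0.047, and in siLP against spleen Il12rb1 was -0.025, Il12rb2 -0.45 and Il18rap -0.69. The cause was not tested.

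Without single libraries, genotype averages ran from -0.13 to 0.39 for Tbx21, -0.31 to 0.028 for Eomes, -0.094 to 0.058 for Stat4 and -0.48 to 0.47 for Il12rb2. Tbx21 between genotypes ran from -1.35 to 0.10 in cLP and -0.37 to 0.95 in siLP, and Il18r1 in siLP from -0.23 to 0.45. Against spleen, cLP ran from -0.60 to 0.13 for Tbx21, -0.25 to 0.26 for Eomes and -0.078 to 0.14 for Runx3, and siLP from -0.075 to 0.55 for Tbx21, -0.35 to 1.06 for Il12rb2 and -0.34 to 0.39 for Il18rap.

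Over all genes, edgeR called 2 for genotype, DESeq2 122, voom 11, no filter 10 and the stricter filter 1. For genotype in spleen, cLP and siLP edgeR called 0, DESeq2 17, 12 and 35, and voom 5, 3 and 2. In cLP against spleen edgeR called 456, DESeq2 1054 and voom 1828, in siLP against spleen 126, 396 and 251, and in siLP against cLP 0, 214 and 434.

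Column endings gave correlations of deviations of 0.0439 to 0.400 in 9 same-ending pairs, 8 above 0.1. Since siLP b fell short of 0.1, pairing was not established, and that 17 of 18 libraries correlated best with their own ending is a hint from the data, not the design. With the block, siLP against spleen called 2 members, Ifngr1 (1.11, adjusted p = 0.0159) and Ly6c2 (-0.84, adjusted p = 0.0350, edgeR), Eomes in cLP against spleen was -0.013, and all genes called were 7 for genotype, 747 for cLP and 243 for siLP against spleen. Depth: 3 counts correspond to 0.108 to 0.185 CPM, and every member was above that in every library.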
